A study of Mus musculus with 2 samples.

Results

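The genes described here build sterols and fatty acids. They are 32 mouse genes taken by symbol from the 32285 genes of the count matrices, and all 32 were present. They fall into 7 genes of the mevalonate route, 11 genes of the route from squalene to cholesterol (18 sterol enzymes together), 6 genes that regulate the sterol regulatory element-binding proteins (SREBPs), and 8 lipogenic genes. The data are single-cell RNA counts from mouse brain. The E4 library came from human APOE4 knock-in mice and the E3 library from human APOE3 knock-in mice, all of them females of 11 to 12 months with no treatment named. Each library pooled the right hemispheres of 3 mice, without brainstem and cerebellum, after enzymatic dissociation at warm temperature. With 1 library per genotype, no difference between E4 and E3 can be tested against variation between mice. All intervals below are 95% intervals. Those of levels, ratios and shares cover counting error only. Those of medians are taken over genes, as if the genes were independent, and do not measure counting error.

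Cells make cholesterol from acetyl-CoA. The mevalonate enzymes build isoprenoid units, squalene synthase joins them, and the later enzymes close and trim the sterol rings. SREBP transcription factors, held in the endoplasmic reticulum by Scap and the Insig proteins while sterols are plentiful, switch on these enzymes and, mainly through Srebf1, the genes of fatty acid synthesis. The adult brain makes its own cholesterol because lipoproteins of the blood hardly cross the blood-brain barrier. Astrocytes release it on ApoE particles, and oligodendrocytes use it for myelin.

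The E4 library held 71625170 unique molecular identifiers (UMIs, each standing for 1 captured RNA molecule) in 13802 barcodes, and the E3 library 56415229 in 11485 barcodes. Medians were 4085 UMIs per barcode in E4 and 3784 in E3, and 13528 E4 and 11288 E3 barcodes were kept as cells. The libraries shared 44 barcodes. A doublet caller marked 6.61% of E4 cells and 4.89% of E3 cells, and these marks gathered in a few clusters that are named below. Genes that overlap ribosomal RNA stood in E4 at 0.36-fold to 0.54-fold of their E3 level in the 7 classes compared, and haemoglobin transcripts at 0.05-fold to 0.69-fold. Of 28 clusters, 23 were named by markers of known cell types, and 10 classes held at least 100 cells in each library. The labels call the cells non-neuronal, and in no cluster did the neuron markers fit best, although neuroprogenitor-like cells passed 2 of the 8. Levels are given in CPM, the UMIs of a gene per 1000000 UMIs of its class.

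Start-site sequence was looked up first, since SREBPs act there together with the factor NF-Y, which binds CCAAT. RefSeq windows on GRCm38.p6, each 250 bases before to 50 bases after a start, were found for 26 of the 32 genes. The letters CCAAT, on either strand, lay in a window of 22 of the 26 genes (84.6%), against 41.1% of 27025 genes with a window. Among the 15 sterol enzymes with a window it was 14 genes (93.3%), among the SREBP regulators 4 of 5 and among the lipogenic genes 4 of 6. The E-box letters CACGTG were found in 6 genes (23.1%), against 8.09% of all genes. The sterol element core TCACNCCAC, again on either strand, was found only in Hmgcs1 among the 26 (3.85%), against 1.44% of all genes. The motifs marked below do not overlap each other. A match is a description of letters and not a binding site. The stretches below belong to Hmgcs1, Mvk and Hsd17b7, which are 3 of the 6 genes that were lower in E4 oligodendrocyte-like cells, and to Insig1, whose levels followed the sterol enzymes across classes. They run on the strand of each gene and end upstream of the starts of both RefSeq and GENCODE. Capitals mark CCAAT or its reverse complement ATTGG, the E-box, and in Hmgcs1 the sterol element core.
Hmgcs1, chr13:119690101-119690325, plus strand: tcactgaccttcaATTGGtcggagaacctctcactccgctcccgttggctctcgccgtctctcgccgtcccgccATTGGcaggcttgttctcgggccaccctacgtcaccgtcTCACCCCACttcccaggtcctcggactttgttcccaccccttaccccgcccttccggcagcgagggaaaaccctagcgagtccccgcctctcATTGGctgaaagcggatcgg
Mvk, chr5:114444081-114444268, plus strand: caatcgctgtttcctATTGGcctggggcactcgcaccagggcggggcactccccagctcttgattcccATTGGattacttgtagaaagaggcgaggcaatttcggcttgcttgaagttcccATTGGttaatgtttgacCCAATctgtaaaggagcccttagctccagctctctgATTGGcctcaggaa
Hsd17b7, chr1:169969259-169969385, minus strand: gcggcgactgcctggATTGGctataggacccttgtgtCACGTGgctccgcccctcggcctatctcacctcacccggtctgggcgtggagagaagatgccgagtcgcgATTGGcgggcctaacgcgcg
Insig1, chr5:28071181-28071331, plus strand: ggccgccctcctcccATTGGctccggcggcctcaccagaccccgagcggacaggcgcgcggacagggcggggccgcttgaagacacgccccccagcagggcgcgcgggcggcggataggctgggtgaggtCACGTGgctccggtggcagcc
Hmgcs1 carried 3 CCAAT boxes in the stretch shown beside its sterol element core, and Mvk carried 5. Hsd17b7 and Insig1 each carried an E-box beside CCAAT.

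The sterol enzymes were highest in astrocyte-like cells. Their summed level there was 2218 CPM in E4 and 2276 CPM in E3. Oligodendrocyte-like cells followed with 1245 CPM in E4 and 1530 CPM in E3, and behind them the order differed between the libraries. Neuroprogenitor-like cells (895 CPM in E4 and 760.1 CPM in E3) came next in E4, and meningeal-like cells (751 CPM in E4 and 841 CPM in E3) came next in E3. Among the 10 classes, microglia-like cells (379 CPM in E4 and 355 CPM in E3) and erythroid-like cells (125 CPM in E4 and 120 CPM in E3) had the lowest sums. A cluster mostly of called doublets, led by Csf2rb and described below, gave 37.9% of the microglia-like sterol enzyme UMIs in E4 and 32.2% in E3, and with called doublets left out the microglia sum was 274 CPM in E4 and 268 CPM in E3. Astrocyte-like cells had 1.62 times the level of oligodendrocyte-like cells over the mean of both libraries. The classes came from clustering these same cells, so levels across classes are a description with no test. For 30 of the 32 genes, the same class was highest in both libraries. That class was astrocyte-like for 17 genes and oligodendrocyte-like for 8. The shares of all genes that are highest in these classes were not counted.

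**Figure D1:**
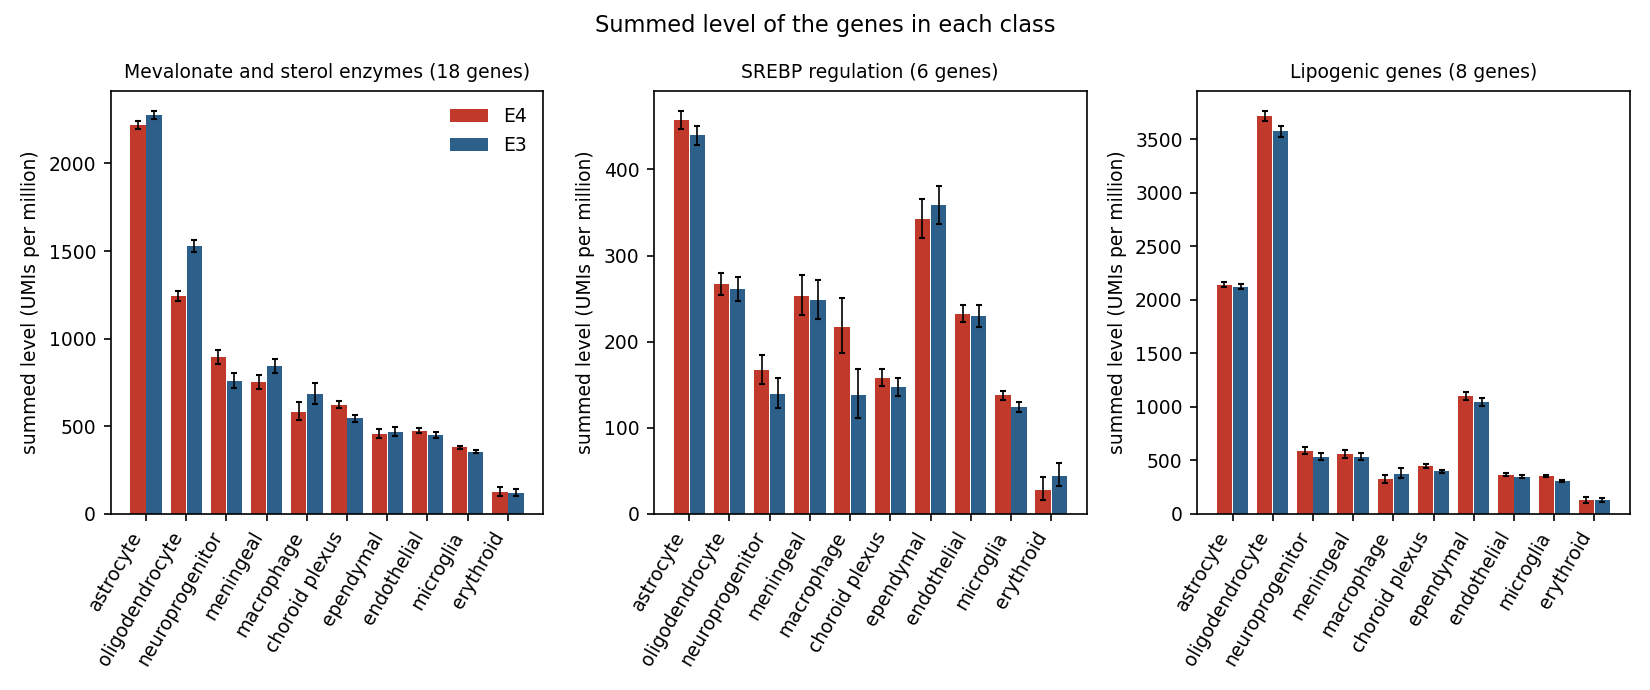
Summed level (CPM) of the 18 sterol enzymes, the 6 SREBP regulators and the 8 lipogenic genes in 10 classes, E4 bars left of E3 bars. Error bars are 95% Poisson intervals. Astrocyte-like cells lead the sterol enzymes with 2218 CPM in E4 and 2276 CPM in E3, and oligodendrocyte-like cells lead the lipogenic genes with 3719 and 3576 CPM.

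In the mevalonate route, Hmgcs1, the synthase that makes HMG-CoA, stood at 225 CPM in E4 and 251 CPM in E3 astrocyte-like cells, and at 236 and 324 CPM in oligodendrocyte-like cells. In E4 the levels of these classes lay close together, while in E3 oligodendrocyte-like cells stood clearly higher. Idi1, which interconverts the isoprenoid units, had 203 CPM in E4 and 224 CPM in E3 astrocyte-like cells, and its next class, oligodendrocyte-like, had 97.0 and 137 CPM. Mvk, Pmvk and Mvd, which phosphorylate and decarboxylate mevalonate, were also highest in astrocyte-like cells. Mvd was the most restricted of these, at 42.8 CPM in E4 and 47.3 CPM in E3 astrocyte-like cells against at most 17.1 CPM in any other class. Acat2, an acetyl-CoA acetyltransferase at the head of the route, was highest in neuroprogenitor-like cells, at 57.4 CPM in E4 and 41.4 CPM in E3. Fdps, which makes farnesyl diphosphate, spread more evenly. Its level was 130 CPM in E4 and 164 CPM in E3 oligodendrocyte-like cells. The choroid plexus, with 116 CPM in E4 and 103 CPM in E3, came close to the astrocyte levels of 115 and 122 CPM.

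Among the enzymes after squalene, Msmo1, which removes the methyl groups of the ring, was the most concentrated. It stood at 647.2 CPM in E4 and 647.5 CPM in E3 astrocyte-like cells, and at 125 and 137 CPM in the next class, oligodendrocyte-like cells. Fdft1 (squalene synthase), Cyp51 (lanosterol demethylase), Nsdhl, Hsd17b7, Tm7sf2 and Dhcr7 were astrocyte-led as well. Sqle, which epoxidises squalene, also stood high in ependymal-like cells, at 102 CPM in E4 and 102 CPM in E3, beside 109 and 107 CPM in astrocyte-like cells. The ependymal and astrocyte intervals of Sqle overlapped in both libraries. Sc5d, a desaturase of the late route, was highest in astrocyte-like cells in E4 (129 CPM) and in oligodendrocyte-like cells in E3 (132 CPM).

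Ebp, the sterol isomerase, did not follow its route. Microglia-like cells had 93.6 CPM of Ebp in E4 and 97.2 CPM in E3, near the oligodendrocyte-like levels of 105 and 114 CPM, while astrocyte-like cells had 41.1 and 35.8 CPM. Meningeal-like cells had 87.0 CPM in E4 and 85.4 CPM in E3, and macrophage-like cells 84.5 and 70.2 CPM. Across 10 classes, Spearman's rho between Ebp and the sum of the other sterol enzymes was 0.21 in E4 and 0.20 in E3. For the other 17 sterol enzymes it was between 0.54 and 0.99. These classes share their library and their depth, and rho is given as a description.

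**Figure D2:**
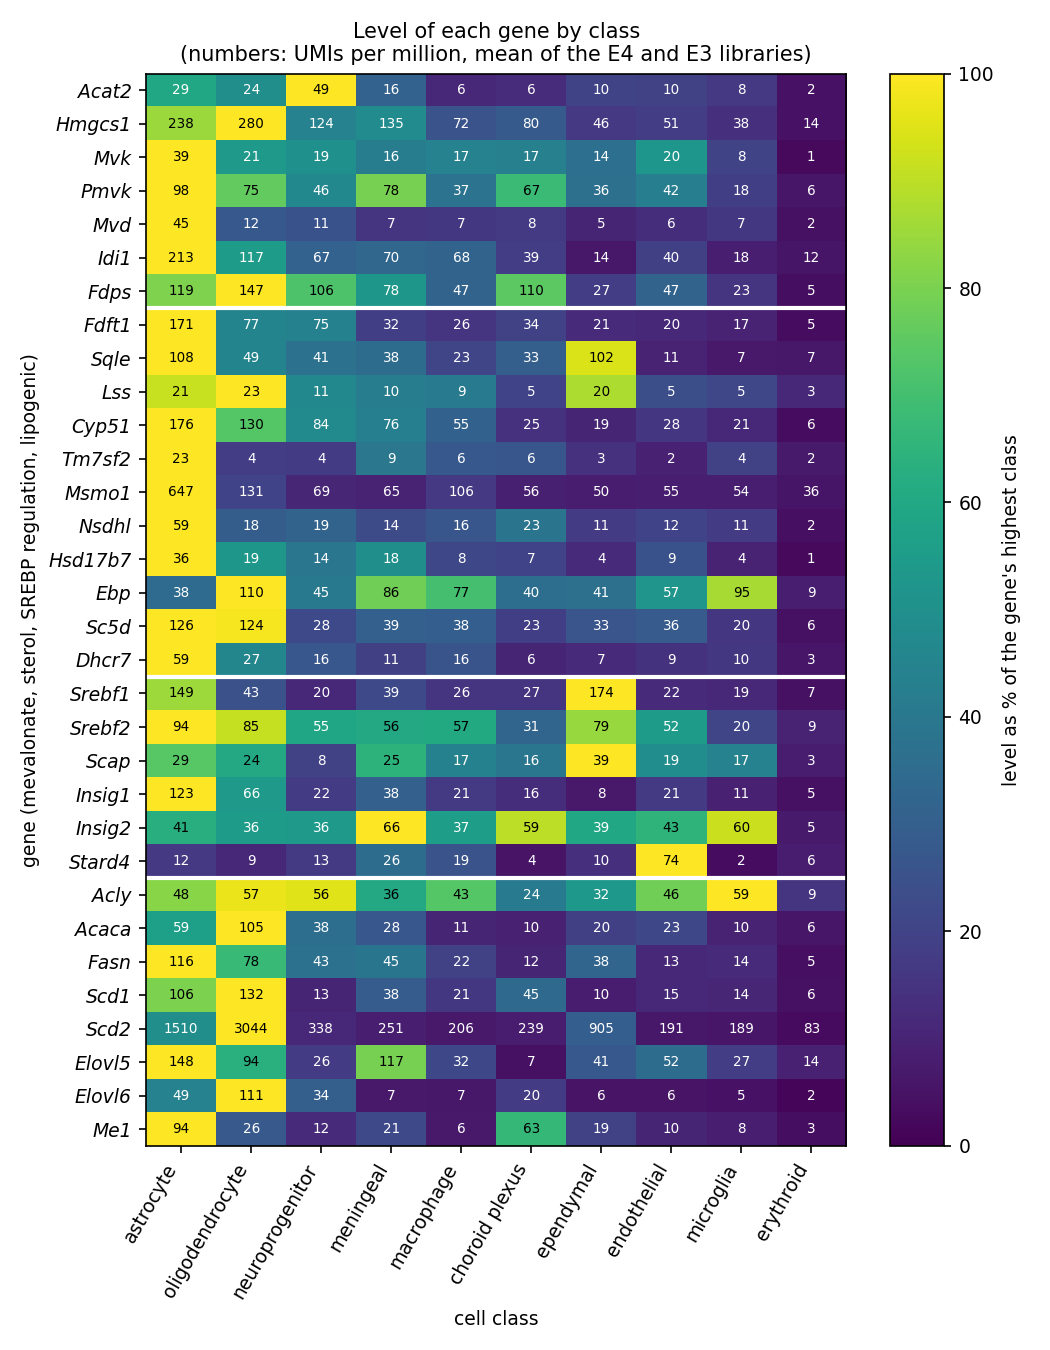
Level of each of the 32 genes (rows) in 10 classes (columns). Colour gives the level as a percentage of the highest class of that gene and the number in each cell is the mean of the E4 and E3 libraries in CPM. The astrocyte column is brightest for most sterol enzymes, Ebp is bright in oligodendrocytes, microglia and meningeal cells, and Stard4 is bright only in endothelial cells.

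The SREBP regulators split between classes. Insig1, an Insig gene that SREBPs themselves switch on, followed the sterol enzymes, with a rho of 0.94 in E4 and 0.84 in E3 over 10 classes, while its paralogue Insig2 did not (rho -0.10 and 0.14). Insig1 made up 75.2% of the Insig1 and Insig2 UMIs in E4 astrocyte-like cells (exact binomial interval 73.5% to 76.9%) and 74.6% in E3. Such shares of UMIs are not corrected for transcript length. Insig1 made up 63.5% and 65.7% in oligodendrocyte-like cells, but 17.2% and 14.6% in microglia-like cells. Without the cluster led by Csf2rb the microglia shares were 8.92% in E4 (exact binomial interval 7.33% to 10.7%) and 8.16% in E3 (6.30% to 10.4%). Insig2 was highest in meningeal-like cells, at 70.3 CPM in E4 and 61.2 CPM in E3, but by little. Choroid plexus-like cells had 61.6 CPM in E4 and 56.9 CPM in E3, inside the meningeal intervals. The microglia-like cluster led by Slc2a5 had 66.8 CPM in E4 and 61.9 CPM in E3. Srebf1, the factor tied mostly to fatty acids, was highest in ependymal-like cells, at 168 CPM in E4 and 180 CPM in E3, then in astrocyte-like cells, at 156 and 141 CPM. Srebf2, tied mostly to sterols, stood at 95.4 CPM in E4 and 92.1 CPM in E3 astrocyte-like cells, followed by oligodendrocyte-like cells with 81.9 and 89.1 CPM. Srebf1 gave 67.9% of the UMIs of these factors in E4 and 69.5% in E3 ependymal-like cells, against 28.9% and 30.2% in endothelial-like cells. Scap, the escort that carries SREBPs to the Golgi, was likewise highest in ependymal-like cells, at 35.6 and 43.2 CPM.

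Stard4, which carries sterols between membranes, had a pattern of its own. Endothelial-like cells had 72.4 CPM in E4 and 76.2 CPM in E3. Meningeal-like cells followed with 27.6 and 24.7 CPM, and microglia-like cells had 2.49 and 2.46 CPM. The endothelial intervals did not overlap those of any other class.

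Summed, the lipogenic genes were highest in oligodendrocyte-like cells, which are the myelin-forming cells. Their sum was 3719 CPM in E4 and 3576 CPM in E3, and over the mean of both libraries it was 1.71 times the astrocyte level. Astrocyte-like cells had 2140 CPM in E4 and 2120 CPM in E3, and ependymal-like cells had 1099 CPM in E4 and 1040 CPM in E3. Scd2, a desaturase that puts a double bond into fatty acids, gave most of the UMIs of this sum and stood at 3134 and 2954 CPM in oligodendrocyte-like cells and 927 and 883 CPM in ependymal-like cells. The lead of oligodendrocyte-like over astrocyte-like cells in the sum came from Scd2. Singly, Acaca, Scd1, Scd2 and Elovl6 were highest in oligodendrocyte-like cells in both libraries. Acaca, which makes malonyl-CoA, stood at 106 and 104 CPM in oligodendrocyte-like cells, and Elovl6, an elongase, at 103 and 119 CPM. Fasn (fatty acid synthase), Elovl5 and Me1 (malic enzyme, a source of NADPH) were highest in astrocyte-like cells, with Fasn at 112 CPM in E4 and 119 CPM in E3. Acly, which releases acetyl-CoA from citrate, was highest in neuroprogenitor-like cells in E4 (63.8 CPM) and in oligodendrocyte-like cells in E3 (59.9 CPM), with microglia-like cells next at 61.2 and 56.8 CPM. Scd1, the desaturase best known from liver and fat, took a small part of the Scd1 and Scd2 UMIs. Its part was largest in the choroid plexus, at 15.8% in E4 and 16.0% in E3, and smallest in ependymal-like cells, at 1.15% in E4 and 1.06% in E3. In astrocyte-like cells it was 5.83% in E4 (exact binomial interval 5.54% to 6.13%) and 7.28% in E3 (6.94% to 7.63%). Elovl5, which extends polyunsaturated fatty acids, gave 92.4% of the Elovl5 and Elovl6 UMIs in E4 and 95.7% in E3 meningeal-like cells, against 24.0% and 26.9% in the choroid plexus. Scd1 and Scd2 are related genes near each other on chromosome 19, and reads that fit both may have been lost or split in counting.

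Astrocyte-like cells were not uniform. The cluster led by Chrdl1, which also held Emx2os, Hapln1 and Dio2 among its leading genes, summed to 2863 CPM of sterol enzymes in E4 and 3029 CPM in E3. The cluster led by Igsf1, which also held Agt and Slc6a11, summed to 1813 and 1789 CPM. The lipogenic sum was lower, at 1786 and 1689 CPM in the Chrdl1 cluster and 2510 and 2598 CPM in the Igsf1 cluster. Scd2 made most of that difference, with 1187 CPM in E4 and 1074 CPM in E3 in the Chrdl1 cluster and 1847 and 1915 CPM in the Igsf1 cluster. Of the 8 lipogenic genes, 3 were lower, 2 higher and 3 neither by the rule that follows. Of the 18 sterol enzymes, 15 were higher in the Chrdl1 cluster with an interval off 1-fold in both libraries, Ebp was lower, and Acat2 and Tm7sf2 did not clear it. Of the 8774 genes with at least 200 UMIs in these clusters, 13% were higher and 13.6% lower by the same rule, and all 32 genes described here had that many. Hmgcs1 was 1.84-fold higher in E4 and 1.78-fold in E3, and Fdft1 1.85-fold and 1.69-fold. Insig1 and Srebf2 followed the sterol enzymes. Insig1 had 171 CPM in E4 and 168 CPM in E3 in the Chrdl1 cluster, and 114 CPM in both libraries in the Igsf1 cluster. Srebf1 stood lower, at 0.80-fold in E4 and 0.69-fold in E3, as did Scd2 (0.64-fold and 0.56-fold), Scd1 (0.46-fold and 0.38-fold) and Me1 (0.62-fold and 0.64-fold). Elovl5 and Elovl6 went with the sterol enzymes instead, at 1.56-fold and 1.74-fold for Elovl6. A further astrocyte-like cluster, led by Bc1, had a median of 779 UMIs per cell and 1799 and 1888 CPM of sterol enzymes. These clusters were made from the same cells and genes, so the contrast is a description.

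**Figure D3:**
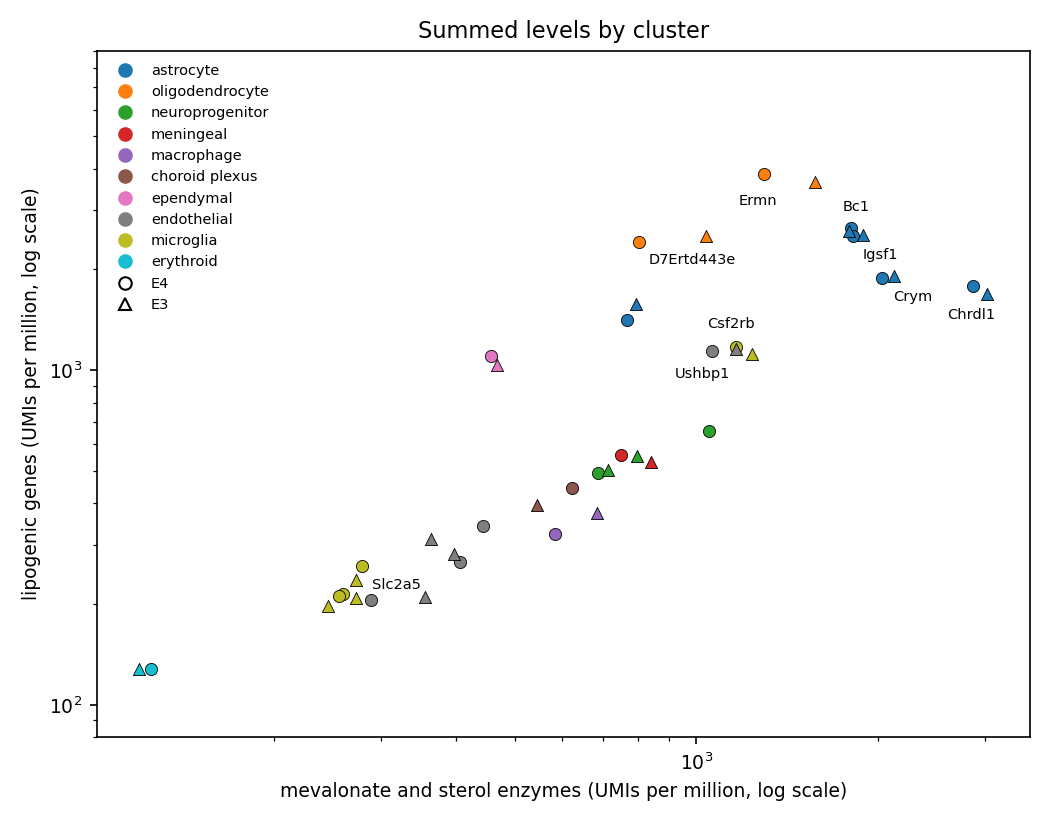
Summed sterol enzymes against summed lipogenic genes for each cluster of 10 classes, both axes in CPM on a log scale, circles for E4 and triangles for E3. The Chrdl1 astrocyte cluster lies furthest right at 2863 and 3029 CPM, below the Igsf1 cluster, and the Csf2rb and Ushbp1 clusters lie apart from the other microglia and endothelial clusters.

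Some clusters held transcripts of more than one cell type. The microglia-like cluster led by Csf2rb, of which 90.4% of E4 and 91.4% of E3 cells were called doublets, held 12337 and 11591 CPM of astrocyte markers, against 589 and 544 CPM in the microglia-like cluster led by Slc2a5. Its sterol enzymes summed to 1162 CPM in E4 and 1237 CPM in E3, against 279 CPM and 274 CPM in the Slc2a5 cluster. It made up 7.41% of E4 and 5.75% of E3 microglia-like cells but 37.9% and 32.2% of their sterol enzyme UMIs. With called doublets left out, microglia-like cells had 2.09 CPM of Sqle in E4 and 1.57 CPM in E3, and 98.0 and 99.9 CPM of Ebp. The endothelial-like cluster led by Ushbp1 was alike, with 11314 and 10957 CPM of astrocyte markers and 1063 and 1164 CPM of sterol enzymes. In the oligodendrocyte-like cluster led by D7Ertd443e, 69.5% of E4 and 55.2% of E3 cells were called doublets, and microglia markers stood at 13798 and 12718 CPM.

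For E4 against E3, a gene was counted as higher or lower in a class when it had at least 200 UMIs there over both libraries and its log2 ratio was past 0.32 in either direction. This threshold is a description of size and no test. At least 200 cells per library were asked for, which 7 classes had.

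In oligodendrocyte-like cells, the sterol enzymes were lower in E4. Their sum was 1245 CPM (interval 1217 to 1273) in E4 and 1530 CPM (1497 to 1564) in E3, a log2 ratio of -0.30 (interval -0.34 to -0.25). Of the 16 sterol enzymes with enough UMIs, 15 were below 0, with a median of -0.23 (order-statistic interval over genes -0.46 to -0.12), while the median of all 6223 genes was 0.03. Of those 6223 genes, 57.4% were above 0. Across all 32 genes, 6 were past the threshold, all lower in E4 and all sterol enzymes. Of all genes tested in this class, 2.96% were lower and 7.67% higher past it.

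Of the 6 genes lower in E4 oligodendrocyte-like cells, 4 belong to the mevalonate route (Hmgcs1, Idi1, Fdps and Mvk) and 2 to the route after squalene (Cyp51 and Hsd17b7). Hmgcs1 had 236 CPM in E4 and 324 CPM in E3, a log2 ratio of -0.46 (interval -0.56 to -0.36). Idi1 had 97.0 CPM in E4 and 137 CPM in E3 (log2 -0.49, interval -0.65 to -0.34). Fdps had 130 CPM in E4 and 164 CPM in E3 (log2 -0.34, interval -0.48 to -0.20), and with cells thinned to 1000 UMIs its log2 ratio was 0.087. The level intervals of these genes did not overlap between the libraries. Cyp51 had 113 CPM in E4 and 147 CPM in E3 (log2 -0.38, interval -0.53 to -0.23). Mvk, the kinase of mevalonate, had 17.4 and 24.0 CPM (log2 -0.46), and Hsd17b7, a ketoreductase of the late route, had 16.2 and 22.3 CPM (log2 -0.46). For both, the level intervals of E4 and E3 overlapped.

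Pmvk, at 67.1 CPM in E4 and 82.2 CPM in E3, lay just short of the threshold with a log2 ratio of -0.29. Mvd had 8.93 and 15.9 CPM and Tm7sf2 2.92 and 5.48 CPM, with too few UMIs to be counted. Acat2, the first gene of the mevalonate route, had 23.9 CPM in E4 and 24.9 CPM in E3. Among the enzymes after squalene, Msmo1 stood at -0.13, Ebp at -0.12 and Dhcr7 at -0.02 on the log2 scale. Lss, which closes the sterol rings, was the only sterol enzyme above 0, at 24.0 CPM in E4 and 21.5 CPM in E3 (log2 0.16).

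None of the SREBP regulators and lipogenic genes was past the threshold in oligodendrocyte-like cells, and 4 of the 5 regulators with enough UMIs were above 0. Insig1 had 69.0 CPM in E4 and 63.6 CPM in E3, Insig2 39.6 and 33.2 CPM, Srebf2 81.9 and 89.1 CPM and Srebf1 43.9 and 42.3 CPM. Scd2 had 3134 and 2954 CPM (log2 0.09). Of the 8 lipogenic genes, 6 lay below 0 with a median of -0.07, and the lowest was Elovl6, at 103 and 119 CPM (log2 -0.21).

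**Figure D4:**
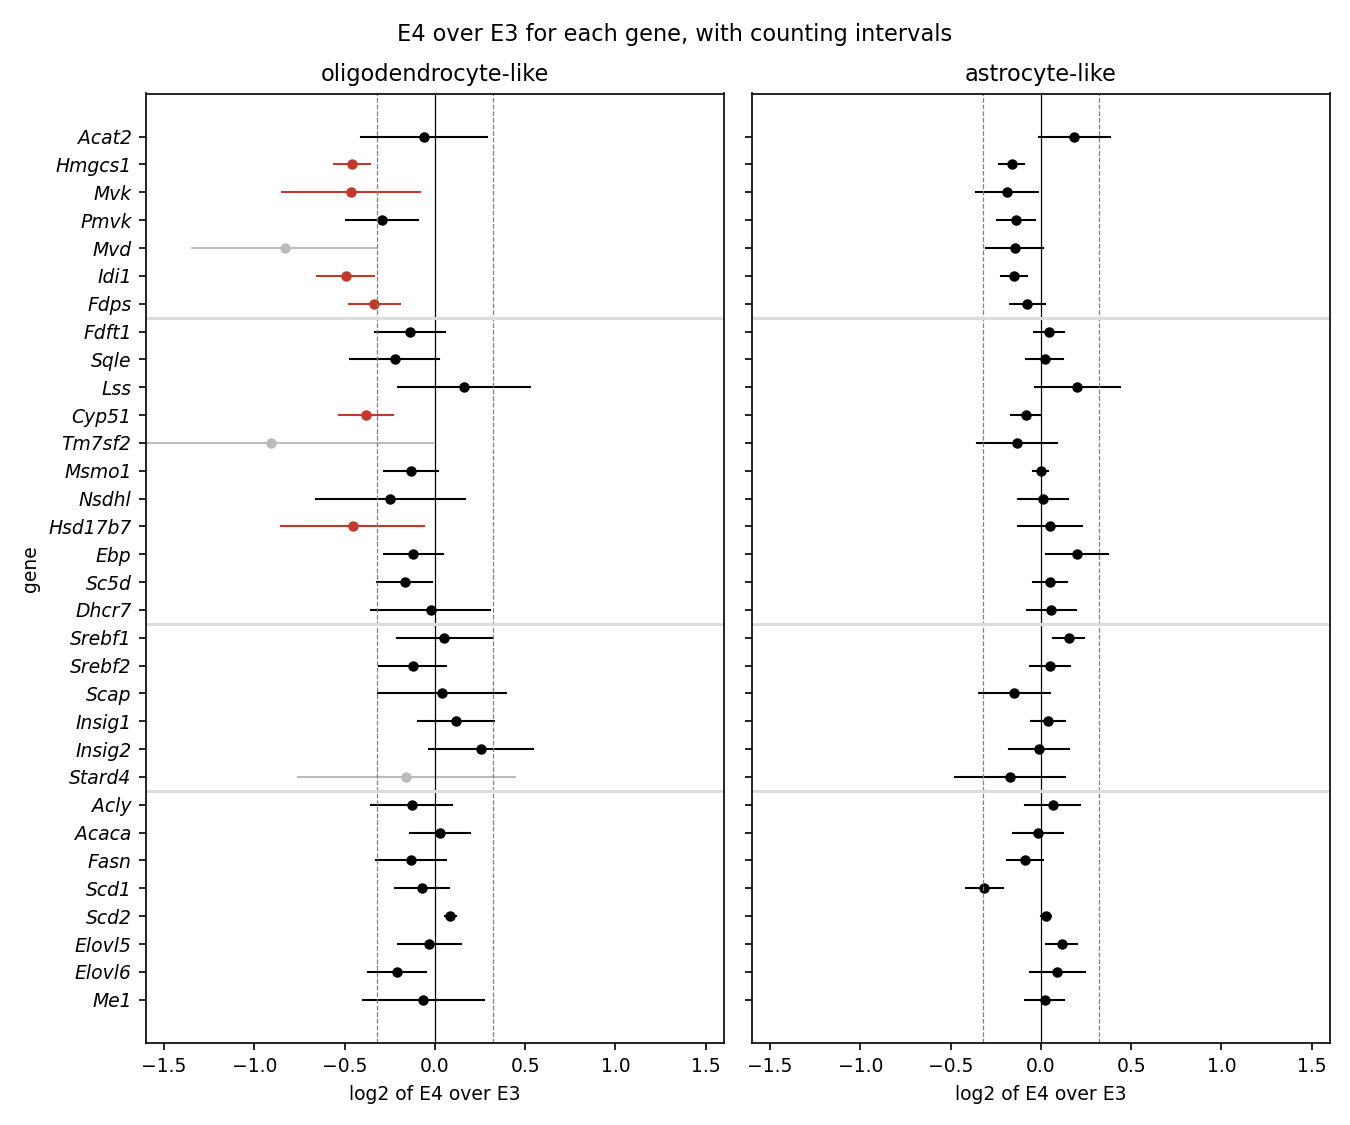
E4 over E3 on the log2 scale for each of the 32 genes in oligodendrocyte-like cells (left) and astrocyte-like cells (right), with 95% counting intervals. Dashed lines mark the threshold of 0.32, red marks genes past it, and grey marks genes under 200 UMIs. In oligodendrocyte-like cells 6 sterol enzymes are red and left of 0, and in astrocyte-like cells no gene is red.

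The sterol enzymes were lower in E4 in both oligodendrocyte-like clusters. Their sum was 1294 CPM in E4 and 1568 CPM in E3 in the cluster led by Ermn (log2 -0.28), where 0.95% of E4 and 0.83% of E3 cells were called doublets, and 802 and 1035 CPM in the cluster led by D7Ertd443e (log2 -0.37). As given above, most cells of the D7Ertd443e cluster were called doublets, a larger share in E4 than in E3, and it held microglia markers. In the Ermn cluster, 15 of the 17 sterol enzymes with at least 50 UMIs lay below 0. A cluster left unnamed because it mixed astrocyte and oligodendrocyte markers, led by Myoc, had 1782 CPM in E4 and 2268 CPM in E3 (log2 -0.35), with 62.0% and 36.3% of its cells called doublets. Per cell, the median sum was 974 CPM over 914 E4 cells and 1122 CPM over 790 E3 cells with at least 1000 UMIs. The middle ranges of cells overlapped, from 636 to 1449 CPM in E4 and from 711 to 1762 CPM in E3. The sum stayed between -0.31 and -0.23 under all alternatives tried, but the number of genes past the threshold was 3 with each cell weighted alike and 2 with cells thinned to 1000 UMIs.

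Other lists also differed in these cells. Immediate-early genes, which cells switch on within minutes of stimulation, summed to 2348 CPM in E4 and 1702 CPM in E3 oligodendrocyte-like cells, and 17 of the 17 with at least 50 UMIs were higher in E4. Myelin transcripts summed to 64637 CPM in E4 and 66743 CPM in E3, a fold of 0.968. Microglia markers stood at 1636 CPM in E4 and 1076 CPM in E3, with 10 of 10 higher in E4, and in the Ermn cluster alone at 291 and 187 CPM. The part of these in the sterol enzyme difference was not tested.

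Astrocyte-like cells, which held the most UMIs of these genes, showed no gene past the threshold among the 32. Scd1, at -0.31 on the log2 scale, lay just short of it, and passed it at Leiden resolutions 0.5 (-0.35) and 2 (-0.33), after centring on the median of all genes (-0.33) and with totals without mitochondrial, haemoglobin and rRNA-overlapping genes (-0.34). Of all 9740 genes tested there, 3.56% were higher in E4 and 2.34% lower. The median of the 32 was 0.02 (interval over genes -0.09 to 0.05), beside 0.02 for all genes. The sterol enzyme sum had a log2 ratio of -0.04 (interval -0.06 to -0.02). The genes of the mevalonate route lay slightly lower in E4 except Acat2. Hmgcs1 had 225 CPM in E4 and 251 CPM in E3 (log2 -0.16) and Idi1 203 and 224 CPM (log2 -0.15), with intervals below 0. The farthest from 0 were Scd1, at 94.4 CPM in E4 and 117 CPM in E3, and Mvk, at 36.1 and 41.1 CPM (log2 -0.19), on the low side. On the high side were Lss (22.3 and 19.4 CPM) and Ebp (41.1 and 35.8 CPM), both at 0.20. Srebf1 had 156 CPM in E4 and 141 CPM in E3 (log2 0.15, interval 0.07 to 0.24).

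In choroid plexus-like cells, the epithelium that makes cerebrospinal fluid, the genes ran higher in E4. The sterol enzyme sum was 623 CPM in E4 and 545 CPM in E3 (log2 0.19, interval 0.12 to 0.26). Of the 19 genes with enough UMIs, 18 were above 0, beside 58.9% of all genes. The median of the 19 was 0.15 (interval over genes 0.08 to 0.30), beside 0.04 for all genes. Past the threshold were Nsdhl, at 27.2 CPM in E4 and 18.3 CPM in E3 (log2 0.57), Acly, at 28.3 and 19.9 CPM (log2 0.51), and Idi1, at 43.9 and 33.4 CPM (log2 0.39). Among all genes, 6.4% were higher past it and 3.78% lower. Cyp51 was the only one below 0, at 24.1 CPM in E4 and 26.6 CPM in E3, and Srebf1, at 27.2 and 26.4 CPM, was the next lowest. With each cell weighted alike the sum ratio was 0.04, and with cells thinned to 1000 UMIs it was -0.14, so its direction turned under thinning. Of Nsdhl, Acly and Idi1, only Acly stayed past the threshold with each cell weighted alike, and only Idi1 under the stricter cell filter. Median depth was 11381 UMIs per E4 cell and 9682 per E3 cell in this class. Immediate-early genes stood at 528 CPM in E4 and 450.1 CPM in E3, and their part was not tested.

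Neuroprogenitor-like cells also ran higher in E4, with 9 of 10 genes above 0, beside 57.6% of all genes. The median of the 10 was 0.30 (interval over genes 0.04 to 0.46), beside 0.05 for all genes. Acat2 had 57.4 CPM in E4 and 41.4 CPM in E3 (log2 0.47), Idi1 77.5 and 56.3 CPM (log2 0.46), Acly 63.8 and 48.6 CPM (log2 0.39), and Msmo1 76.6 and 60.7 CPM (log2 0.34). These 4 were past the threshold, beside 10.9% of all genes higher and 3.74% lower. Fdps was level, at 106 and 106 CPM, and so was Scd2, at 342 and 334 CPM. The cluster led by Dlx6os1, which holds Dcx, a marker of migrating neuroblasts, had 1048 CPM of sterol enzymes in E4 and 797 CPM in E3 (log2 0.40). The cluster led by the division genes Top2a and Mki67 had 686 and 713 CPM (log2 -0.06). Idi1 differed in opposite directions between these clusters, with 97.9 CPM in E4 and 39.2 CPM in E3 in the Dlx6os1 cluster (log2 1.32, interval 0.80 to 1.87) and 49.6 CPM in E4 and 78.3 CPM in E3 in the Top2a cluster (log2 -0.66, interval -1.23 to -0.09). Immediate-early genes stood at 2712 CPM in E4 and 1525 CPM in E3 in this class, with 12 of 12 higher. Microglia markers stood at 2496 and 1793 CPM, with 10 of 10 higher, and haemoglobin transcripts at 89.5 and 1850 CPM. The part of these was not tested. With called doublets left out, 6 genes kept enough UMIs and none was past the threshold, with a median of 0.18 and Idi1 at 0.29. Median depth was 4677 UMIs per E4 cell and 3766 per E3 cell in this class. With cells thinned to 1000 UMIs no gene kept enough UMIs to be counted.

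In microglia-like cells 22 of 27 genes were above 0, beside 63.5% of all genes. The median of the 27 was 0.17, beside 0.05 for all genes, and 4 of the 27 were past the threshold. These were Me1 (9.31 CPM in E4 and 6.20 CPM in E3), Acaca (12.0 and 8.42 CPM), Srebf1 (22.3 and 16.4 CPM) and Insig1 (12.9 and 10.0 CPM). Among all genes 7.06% were higher and 1.61% lower. Without the Csf2rb cluster, the median was 0.08 over 18 genes, none was past the threshold, and the sterol enzyme sum ratio was 0.01 in place of 0.09. Within the Slc2a5, Rgs1 and Atf3 clusters the sum ratios were 0.03, 0.06 and -0.07. On the low side, Scap and Acat2 both stood at -0.06 in the class. Immediate-early genes stood at 12962 CPM in E4 and 10363 CPM in E3 microglia-like cells, and their part was not tested.

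In endothelial-like and ependymal-like cells, the genes past the threshold in the main setting were all higher in E4. In endothelial-like cells 3 of 21 genes were past the threshold, Fdft1 (22.8 CPM in E4 and 17.1 CPM in E3), Msmo1 (62.0 and 47.3 CPM) and Acaca (25.1 and 20.1 CPM), all higher, beside 8.1% of all genes higher and 2.13% lower. Without the Ushbp1 cluster none of the 19 genes left was past it. Insig1 (19.3 and 22.6 CPM) and Mvk (19.2 and 21.3 CPM) were the lowest, at -0.22 and -0.15. In ependymal-like cells Elovl5 was higher, at 46.0 CPM in E4 and 35.4 CPM in E3 (log2 0.38), as the only gene of 11 past the threshold, beside 5.59% of all genes higher and 4.49% lower. With called doublets left out Elovl5 had too few UMIs to be counted and no gene was past it. At Leiden resolution 0.5, where the cells of this class differ, Elovl5 stood at 0.23. Of the 18 genes with enough UMIs there, 5 were past the threshold and lower in E4 (Idi1, Cyp51, Hmgcs1, Fdps and Scd1). The share of all genes past it was not counted at that resolution. The sterol enzyme sum ratio was -0.35 there, in place of -0.03. In the main setting, Insig2 stood at 0.24 on the log2 scale, Scap at -0.28 and Ebp at -0.12, and Sqle was level at 102 and 102 CPM.

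**Figure D5:**
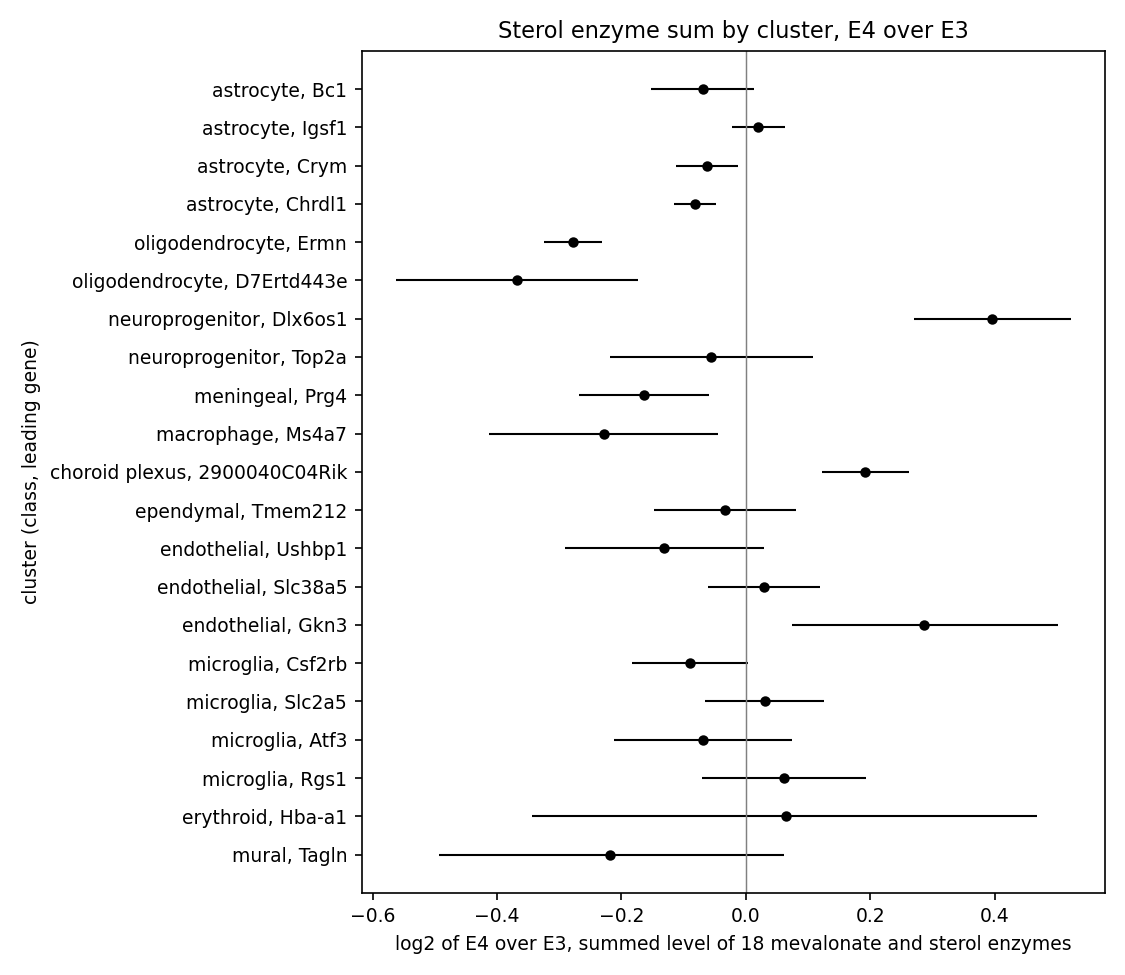
E4 over E3 on the log2 scale for the summed level of the 18 sterol enzymes in each named cluster with at least 50 cells per library, with 95% counting intervals, labelled by class and leading gene. Both oligodendrocyte clusters lie below 0, at -0.28 for Ermn and -0.37 for D7Ertd443e, which is mostly called doublets. The Dlx6os1 neuroprogenitor cluster lies at 0.40 and the microglia clusters straddle 0.

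A further list held 24 other genes of these pathways. In oligodendrocyte-like cells 3 of 17 were higher in E4 and none lower, beside 7.67% and 2.96% of all genes. They were Erlin2, whose protein takes part in the breakdown of sterol-bound proteins of the endoplasmic reticulum (68.5 CPM in E4 and 52.5 CPM in E3), Lpin1, a phosphatidate phosphatase (33.8 and 24.7 CPM), and Mylip, a ubiquitin ligase that lowers lipoprotein receptors (21.3 and 16.2 CPM). The median of the 17 was 0.01, beside -0.23 for the sterol enzymes. In astrocyte-like cells 1 of 19 was past it, Cyp27a1, a sterol 27-hydroxylase, at 8.09 CPM in E4 and 6.06 CPM in E3, beside 3.56% of all genes higher and 2.34% lower. Microglia-like cells had Acss2 (9.80 and 7.63 CPM) and Slc25a1 (26.2 and 20.1 CPM) higher, of 19, beside 7.06% of all genes. Endothelial-like cells had Ggps1, Soat1, Lpin1 and Acacb higher and Mbtps2 lower, of 18, with Acacb at 27.9 and 19.4 CPM, beside 8.1% higher and 2.13% lower of all genes. Choroid plexus-like cells had Acss2 and Hacd3 lower, of 12, beside 3.78% of all genes. None was past the threshold in neuroprogenitor-like and ependymal-like cells, of 5 and 7.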

How the data were processed

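Per the labels and the study's methods, each library was made with the 10x Genomics 3′ kit and counted by the authors with Cell Ranger (6.1.1 for E4 and 6.1.2 for E3) against mm10. The deposited counts are raw UMI counts per gene and barcode, not normalized. The filter of the study (50 to 50000 UMIs, at most 30% mitochondrial counts) was applied, and it left more cells than the study describes. The 44 barcodes shared by the libraries were kept.

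Counts were scaled to 10000 per cell and clustered with scanpy 1.11.5 (2000 variable genes, 20 principal components, 15 neighbours, Leiden resolution 1, no batch correction). Clusters were named from marker lists, and called X-like. Clusters with markers of several types were left unnamed. Scrublet doublet calls were kept in and left out as an alternative. UMIs were summed per class and library. Levels have exact Poisson intervals, ratios an exact binomial interval of the split of the UMIs, and shares an exact binomial interval, all at 95% and for counting error only. Medians have a 95% order-statistic interval over genes, which treats the genes as independent. Scripts used python 3.11.15, numpy 2.4.6, scipy 1.17.1 and pandas 2.3.3. The interval method was tested on simulated Poisson counts without variation between cells or mice. That test checks the calculation and not whether counting error is the only error in these data.

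Genes were named in each class where they had at least 200 UMIs over both libraries and passed the threshold, with the 2 highest and 2 lowest genes where fewer than 2 passed in a direction. The genes and lists were chosen with earlier results of these data known. Alternatives covered the cell filter, doublets, totals, cell weighting, depth, resolution, UMI minimum, centring and fold. Leaving out single clusters was chosen after seeing the data. Gene positions came from GENCODE vM21, and promoter sequences from RefSeq.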

Additional observations from a re-analysis of the deposited data

Results flagged for a closer look

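Idi1, the isomerase of the isoprenoid units, ran in opposite directions between classes. Its log2 ratio of E4 over E3 was 0.39 in choroid plexus-like cells, 0.46 in neuroprogenitor-like cells and -0.49 in oligodendrocyte-like cells, and each counting interval lay on its own side of 0. Within the neuroprogenitor-like class, Idi1 stood at 1.32 in the cluster led by Dlx6os1 (97.9 CPM in E4 and 39.2 CPM in E3) and at -0.66 in the cluster led by Top2a (49.6 CPM in E4 and 78.3 CPM in E3), and with called doublets left out the class stood at 0.29, short of the threshold of 0.32. In choroid plexus-like cells Idi1 was past the threshold in the main setting but not with each cell weighted alike. With 1 library per genotype, the difference between the classes was not tested.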

How the results depend on the processing

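The sterol enzyme sum of oligodendrocyte-like cells stayed lower in E4 under every alternative run, at -0.23 with cells thinned to 1000 UMIs and -0.24 with each cell weighted alike, but at 1.5-fold no gene was past the threshold (0 of 29), against 3 with each cell weighted alike and 2 after thinning. Thinning left 7 genes, whose median was 0.0024, and turned Fdps to 0.087. At 1.5-fold the counts were 1 in microglia-like cells and 0 in choroid plexus-like, endothelial-like, ependymal-like and neuroprogenitor-like cells. Thinning gave 0 in choroid plexus-like, endothelial-like, microglia-like and neuroprogenitor-like cells, of which the choroid plexus-like and neuroprogenitor-like classes kept no gene to count and so gave no median. Thinned medians were -0.11 in endothelial-like, 0.36 in ependymal-like and 0.041 in microglia-like cells, the first pair on 1 gene each. Thinned sterol sum ratios were -0.14 in choroid plexus-like and 0.16 in ependymal-like cells. With each cell weighted alike the counts were 5 in choroid plexus-like, 1 in endothelial-like, 3 in ependymal-like and 2 in microglia-like cells, the choroid plexus median was 0.042, the sum ratios were -0.062 in astrocyte-like, 0.039 in choroid plexus-like and 0.038 in microglia-like cells, and Acaca in endothelial-like cells stood at -0.0063. Without called doublets the counts were 5 in choroid plexus-like, 1 in endothelial-like, 0 in ependymal-like, 1 in microglia-like and 0 in neuroprogenitor-like cells, and the microglia sum ratio was 0.032. The endothelial gene was then Insig1, lower in E4 (log2 -0.34), and the microglia gene was Nsdhl, higher in E4 (log2 0.35). No gene past the threshold in these 2 classes in the main setting stayed past it without doublets. With a minimum of 50 UMIs the counts were 9 in choroid plexus-like, 8 in endothelial-like, 4 in ependymal-like and 14 in neuroprogenitor-like cells. Directions were mixed at that minimum. Lower in E4 were Fasn, Lss and Mvd in endothelial-like cells and Nsdhl and Stard4 in ependymal-like cells. Tm7sf2 in choroid plexus-like cells and Ebp in neuroprogenitor-like cells were lower too. The share of all genes past the threshold was not counted under these alternatives. The stricter cell filter left 1 in choroid plexus-like cells and an astrocyte sum ratio of -0.061. Astrocyte-like cells had 1 gene past the threshold at either other Leiden resolution, after centring, and with totals without mitochondrial, haemoglobin and rRNA-overlapping genes. Their sum ratio was -0.075 at resolution 0.5, -0.083 at resolution 2 and -0.069 with those totals. At resolution 0.5, ependymal-like cells had 5 genes past the threshold, a median of -0.15 and a sum ratio of -0.35, and microglia-like cells had 1, a median of 0.060 and a sum ratio of 0.010. At resolution 2, microglia-like cells had 2, a median of 0.057 and a sum ratio of 0.022. In alternatives chosen after seeing the data, microglia-like cells had 8 genes past the threshold and a sum ratio of 0.15 without the Atf3 cluster, and 0 and a sum ratio of 0.015 without the Csf2rb cluster. Endothelial-like cells had 0 without the Ushbp1 cluster, and the neuroprogenitor sum ratio was 0.40 without the Top2a cluster. The cause of these shifts was not tested. Astrocyte-like over oligodendrocyte-like sterol sums (1.62) became 1.53 and 1.52 at resolutions 0.5 and 2, 1.58 without doublets, 1.75 thinned, 1.68 with each cell alike, 1.74 with the stricter filter, 1.71 with the other totals and 1.57 without the D7Ertd443e cluster. Oligodendrocyte-like over astrocyte-like lipogenic sums (1.71) became 1.74 and 1.78 at those resolutions, 1.76 without doublets, 1.83 thinned, 1.67 with each cell alike, 1.87 with the stricter filter, 1.63 with the other totals, 1.75 without the Bc1 cluster and 1.76 without the D7Ertd443e cluster. The SREBP regulators of astrocyte-like over ependymal-like cells (1.28) became 1.22 at resolution 0.5, 1.41 thinned and 1.42 with each cell alike. No paired analysis was possible because each genotype had 1 library. Genes of few UMIs were limited by depth, and Mvd and Tm7sf2 in oligodendrocyte-like cells could not be counted.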

Other observations

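A small cluster led by Gpr17, a marker of committed oligodendrocyte precursors, was left unnamed because it mixed precursor and oligodendrocyte markers. Its 41 E4 and 42 E3 cells had 1624 CPM of sterol enzymes in E4 and 1154 CPM in E3, and 1157 CPM of lipogenic genes in E4 and 693 CPM in E3. This was the opposite direction to that of the oligodendrocyte-like cells, in few cells and with no test. Macrophage-like cells had 217 CPM of the SREBP regulators in E4 and 138 CPM in E3, with 185 and 96 UMIs behind these sums. Their other sums went the other way, with sterol enzymes at 584 CPM in E4 and 684 CPM in E3. Lipogenic genes stood at 324 and 376 CPM.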
